A study of Homo sapiens with 24 samples.

Results

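The cytochrome P450 enzymes of families 1 to 4 are heme-containing monooxygenases, held mostly in the membrane of the endoplasmic reticulum, that oxidise drugs, pollutants, fatty acids, eicosanoids and vitamin D. The 34 members described here were listed by gene, and an array probe was taken for a member where its RefSeq transcript belongs to that gene. A probe was matched for 33 of the 34, 29 entered the test of 24643 genes, and 23 of these 29 were well above background on all 24 arrays. CYP2A6 had no matched probe, so its expression was not analysed here, and it entered only the counts of sequence motifs. The cells were HepaRG, a human hepatocellular carcinoma line of bipotent liver progenitors, and total RNA was hybridised to 24 one-colour (Cy3) Agilent arrays, 3 for each of 8 conditions. Cells were left untransfected, transfected with a negative control siRNA or a β-catenin (CTNNB1) siRNA (80 pmol each), or given 300 ng/ml mouse FZD8_CRD, the soluble Wnt-binding domain of a Frizzled receptor. Each of these 4 groups was kept for 72 h without Wnt3a or with 200 ng/ml mouse recombinant Wnt3a, in serum-free medium containing bovine serum albumin. Transfection was done by electroporation of cells detached from the plate, and FZD8_CRD was given to untransfected cells.

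HepaRG is a single line, and 1 siRNA sequence was used against β-catenin, so lower β-catenin and other effects of that sequence cannot be told apart. Comparisons of siRNA with no transfection include the handling of transfected cells. The study's design text describes the replicates as independent cultures. Each replicate number is also a slide of 8 arrays, on which every condition kept its position, with Wnt3a-treated samples in the second row, so position and condition cannot be told apart. Signals are log2 of background-subtracted spot intensity, scaled so that 0 is the 75th percentile of the array, and levels of different probes are not compared. Values at or below the detection limit stand at a floor of -6.13, and a difference or median that includes them is a bound. Differences are on the same log2 scale, replicates are given in the order 1, 2 and 3, and a gene was called at a limma adjusted p under 0.05. Calls that a single array decides are named with each comparison. The share of all genes called is not given for fits without an array or a replicate. Member counts from those fits may therefore move with all genes. With the slide as a block in the fit all calls of members were kept, and members called in addition are named. The number of arrays limits the precision.

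Family 1 enzymes oxidise polycyclic aromatic compounds and their genes answer to the aryl hydrocarbon receptor (AHR). Families 2 and 3 carry most drug oxidation in hepatocytes, under nuclear receptors such as PXR (NR1I2) and CAR and liver factors such as HNF4A, while family 4 hydroxylates fatty acids and eicosanoids near their methyl end. In liver, several of these enzymes are most abundant in hepatocytes around the central vein, where Wnt signaling is strongest, and HepaRG cells are known for gaining P450 activity as they mature into hepatocyte-like cells.

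The label of a liver cell line was checked against marker genes. All 7 hepatocyte markers tested (ALB, APOA1, APOB, SERPINA1, TF, TTR and FGB) were well above background on all 24 arrays. Their mean log2 signal was 6.65, 5.77 and 4.98 in untransfected cells, 3.91, 3.80 and 4.01 after control siRNA, 4.75, 4.10 and 4.62 with β-catenin siRNA and 3.34, 2.79 and 4.01 with FZD8_CRD. With Wnt3a the same mean was 5.26, 4.0 and 5.42, 3.33, 2.86 and 3.38, 3.36, 3.84 and 4.31 and 3.85, 3.82 and 3.96 in these groups. Untransfected replicate 1 was the highest array and FZD8_CRD replicate 2 the lowest. Of the biliary and progenitor markers, 4 of 5 were tested (EPCAM was not) with means between 2.63 and 3.13. Endothelial markers (4 of 4 tested) had means between -3.34 and -2.49 and leukocyte markers (4 of 4, with CD3E well above background on only part of the arrays) between -2.40 and -1.34. The lists rest on different probes, so their means are not compared with each other. Single markers stood apart from these means, with KDR at 1.81, CD68 at 1.59 and CD14 at 1.20 in untransfected cells without Wnt3a. The siRNA target CTNNB1 measured 0.26, 0.35 and 0.52 after its siRNA and 0.33, 0.52 and 0.77 after its siRNA with Wnt3a. On the other 18 arrays it lay between 3.22 and 4.11, with no overlap. A list of markers, AHR pathway genes, nuclear receptors or redox partners that is not named for a comparison had no limma call in it.

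**Figure D1:**
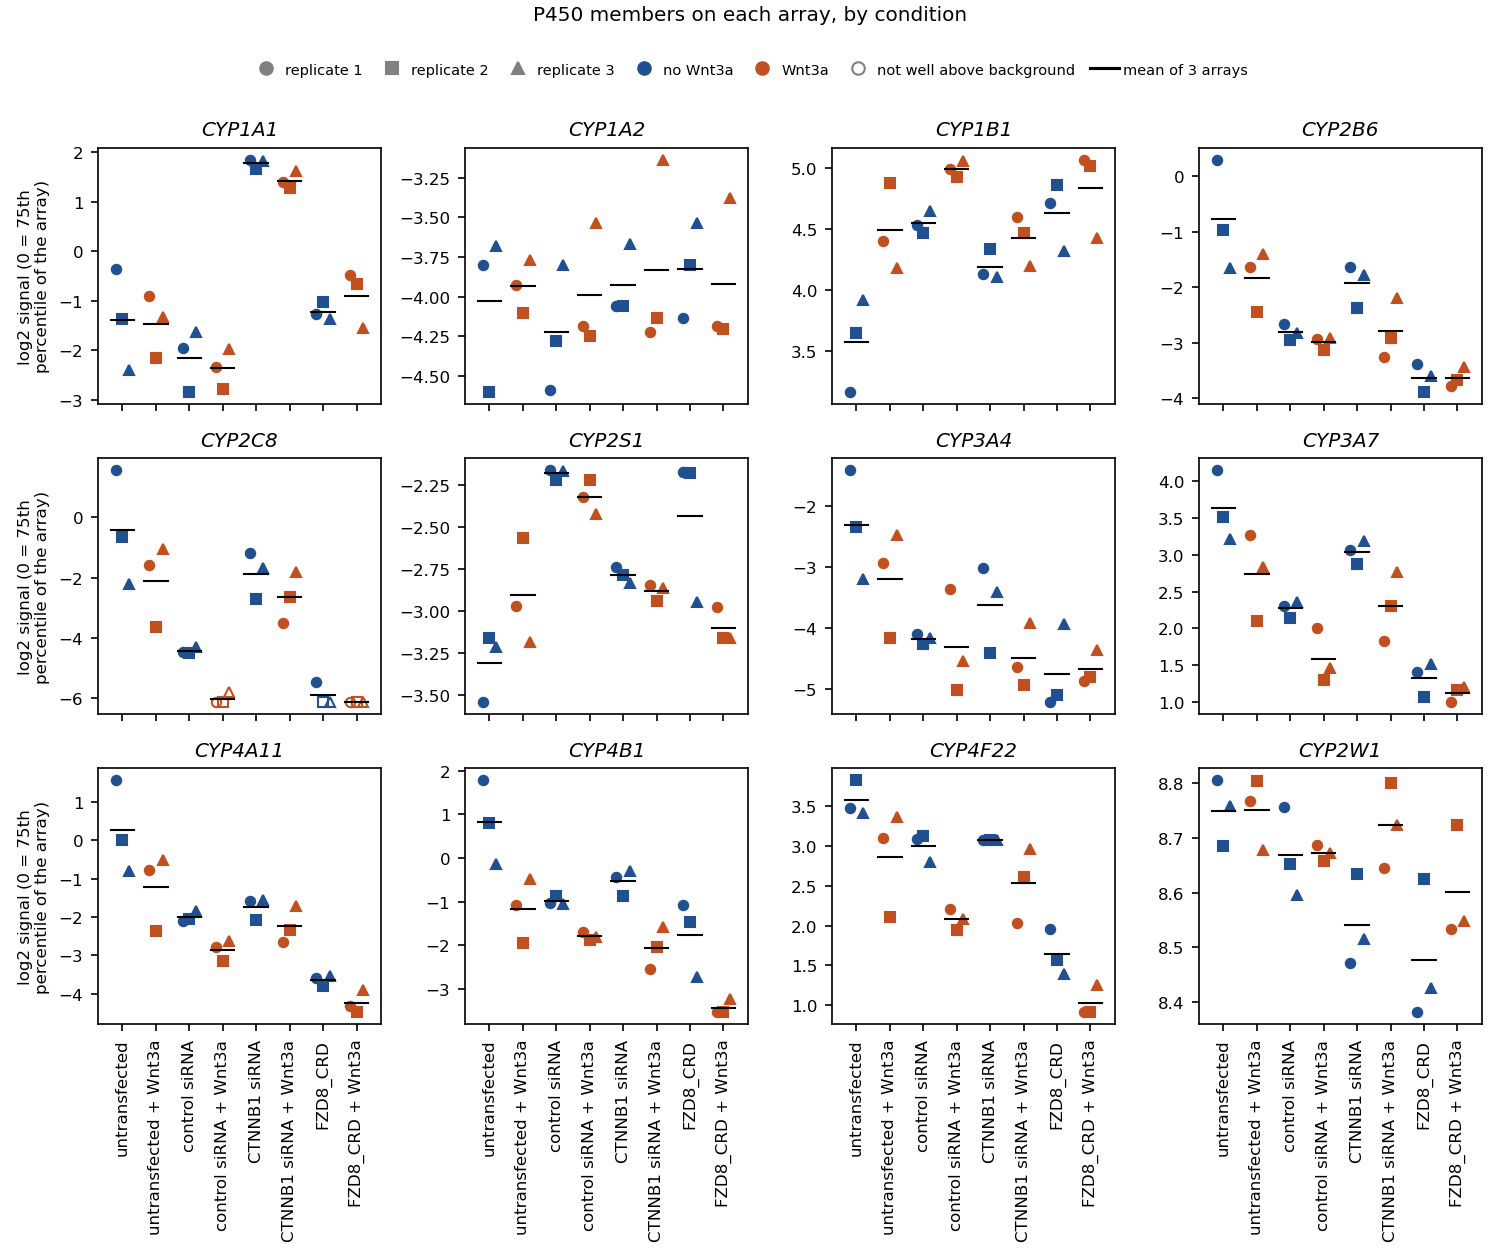
Log2 signal of 12 P450 members on each array, with 0 at the 75th percentile of the array, by condition (blue without and orange with Wnt3a; marker shapes are replicates, open markers are not well above background and bars are means of 3 arrays). CYP1A1 lies between 1.27 and 1.85 on the 6 arrays of β-catenin siRNA and at or below -0.37 elsewhere, while CYP2C8 reaches the floor of -6.13 with FZD8_CRD.

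CYP1A1, the classic AHR target that oxidises polycyclic hydrocarbons, had the widest change with β-catenin siRNA. CYP1A1 had log2 signals of -0.37, -1.38 and -2.41 in untransfected cells, -1.96, -2.85 and -1.63 after control siRNA, 1.85, 1.66 and 1.81 with β-catenin siRNA and -1.27, -1.03 and -1.38 with FZD8_CRD. With Wnt3a, CYP1A1 had -0.90, -2.16 and -1.33 in untransfected cells, -2.33, -2.78 and -1.98 after control siRNA, 1.39, 1.27 and 1.62 with β-catenin siRNA and -0.49, -0.66 and -1.55 with FZD8_CRD. The 6 arrays of β-catenin siRNA lay above the other 18 with no overlap, and among the others untransfected replicate 1 was highest. Against control siRNA the difference was 3.92 (SE 0.41, adjusted p = 4.85e-06) without Wnt3a, and 3.81, 4.51 and 3.45 within slides 1 to 3. With Wnt3a it was 3.79 (SE 0.41, adjusted p = 4.17e-06), and 3.72, 4.05 and 3.60 within the slides. Both calls held in every one of 20 alternatives each. CYP1A1 was called in none of the other comparisons.

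CYP1A2, its neighbour on chromosome 15, oxidises caffeine and aromatic amines. It lay between -4.60 and -3.14 on the 24 arrays and was called in no comparison, with differences after β-catenin siRNA of 0.30 (adjusted p = 0.694) without and 0.16 (adjusted p = 0.886) with Wnt3a. The 250 bases before the start of each gene are shown because this neighbouring pair differed in outcome (RefSeq, GRCh38.p14; CYP1A1 at chr15:74725529-74725778, minus strand, and CYP1A2 at chr15:74748595-74748844, plus strand). Capitals mark GCGTG, the core letters of an AHR response element, searched on both strands.
CYP1A1: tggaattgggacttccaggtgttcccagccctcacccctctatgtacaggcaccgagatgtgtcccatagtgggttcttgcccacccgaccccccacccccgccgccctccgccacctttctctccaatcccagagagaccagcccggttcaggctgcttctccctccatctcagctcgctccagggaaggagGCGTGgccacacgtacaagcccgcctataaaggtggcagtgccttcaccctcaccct
CYP1A2: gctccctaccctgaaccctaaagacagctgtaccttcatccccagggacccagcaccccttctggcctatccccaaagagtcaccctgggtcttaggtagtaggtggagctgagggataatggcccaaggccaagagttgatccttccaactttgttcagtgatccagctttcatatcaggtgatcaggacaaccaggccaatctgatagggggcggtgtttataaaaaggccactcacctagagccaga
GCGTG is present once before CYP1A1 and not in the window of CYP1A2, and 32.2% of 35116 such windows hold it. Of the 27 members with a window, 6 hold it (CYP1A1, CYP2A7, CYP2J2, CYP2W1, CYP4F22 and CYP4X1). The aligned pair is 45.3% identical.

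CYP1B1, which oxidises estradiol and procarcinogens outside the liver as well, was at its lowest in untransfected cells. Without Wnt3a, CYP1B1 measured 3.16, 3.64 and 3.92 in untransfected cells, 4.54, 4.47 and 4.65 after control siRNA, 4.13, 4.34 and 4.10 with β-catenin siRNA and 4.71, 4.86 and 4.32 with FZD8_CRD. Wnt3a-treated cells had CYP1B1 at 4.41, 4.88 and 4.18 without transfection, 5.00, 4.93 and 5.06 after control siRNA, 4.60, 4.47 and 4.20 with β-catenin siRNA and 5.07, 5.02 and 4.43 with FZD8_CRD. The untransfected arrays without Wnt3a lay below all arrays of the 7 other conditions, with replicate 1 lowest. CYP1B1 rose by 0.92 (SE 0.20, adjusted p = 0.0112) with Wnt3a in untransfected cells, 0.98 (SE 0.20, adjusted p = 0.00144) with control siRNA and 1.06 (SE 0.20, adjusted p = 0.000233) with FZD8_CRD. These 3 comparisons share the untransfected arrays. Within slides the Wnt3a difference was 1.25, 1.24 and 0.27.

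Of the AHR pathway list, 6 of 7 genes were tested (AHRR was not). With β-catenin siRNA the aldehyde dehydrogenase gene ALDH3A1, another AHR target, fell in both comparisons, with differences of -1.23 (adjusted p = 9.06e-08) without and -1.23 (adjusted p = 3.91e-08) with Wnt3a. TIPARP, also an AHR target, rose by 0.30 (adjusted p = 0.0287) without Wnt3a, and no other gene of the list was called there. With control siRNA against no transfection, ALDH3A1 rose by 1.13 while TIPARP had a difference of -0.37, and with Wnt3a ALDH3A1 rose by 0.73. FZD8_CRD without Wnt3a raised NQO1 (0.91, 2 of 3 untreated arrays above background) and ALDH3A1 (0.25) and lowered TIPARP (-0.25). FZD8_CRD with Wnt3a raised NQO1 (0.64) and lowered AHR (-0.39), and Wnt3a in untransfected cells raised ALDH3A1 (0.50). The list had no call in the other comparisons.

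CYP2B6 oxidises bupropion and efavirenz and is a standard target of CAR. For CYP2B6, the log2 signals without Wnt3a were 0.30, -0.96 and -1.65 in untransfected cells, -2.66, -2.94 and -2.83 after control siRNA, -1.63, -2.38 and -1.77 with β-catenin siRNA and -3.38, -3.89 and -3.60 with FZD8_CRD. Together with Wnt3a, CYP2B6 gave -1.64, -2.44 and -1.40 in untransfected cells, -2.93, -3.13 and -2.91 after control siRNA, -3.26, -2.91 and -2.20 with β-catenin siRNA and -3.77, -3.67 and -3.44 with FZD8_CRD. Untransfected replicate 1 was the highest array, and all 6 arrays with FZD8_CRD lay below every other array. The difference with FZD8_CRD was -2.86 (SE 0.36, adjusted p = 4.56e-06) without and -1.80 (SE 0.36, adjusted p = 0.000625) with Wnt3a. With control siRNA it was -2.04 (SE 0.36, adjusted p = 0.000593) and -1.16 (SE 0.36, adjusted p = 0.0494). A second kept probe did not follow, with differences of 0.13 with FZD8_CRD and 0.071 with control siRNA, both without Wnt3a. In the mean of both probes CYP2B6 differed by -1.36 with FZD8_CRD without Wnt3a, and the call with control siRNA and Wnt3a was lost (adjusted p = 0.32). Its window is shown because it holds ATCAAAG, letters bound by the TCF/LEF partners of β-catenin (chr19:40991032-40991281, plus strand, GRCh38.p14, RefSeq). Capitals mark the match, which lies on the other strand and so reads CTTTGAT.
CYP2B6: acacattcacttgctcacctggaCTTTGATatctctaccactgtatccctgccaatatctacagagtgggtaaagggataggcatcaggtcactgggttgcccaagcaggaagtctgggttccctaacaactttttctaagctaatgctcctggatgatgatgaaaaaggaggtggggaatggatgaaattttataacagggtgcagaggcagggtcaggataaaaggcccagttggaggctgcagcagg
ATCAAAG is found in 2.26% of the 35116 windows and in those of 3 members, CYP2B6, CYP2C19 and CYP3A43. CYP2B6 was not called with β-catenin siRNA at 0.89 (adjusted p = 0.138) without and 0.20 (adjusted p = 0.866) with Wnt3a. A match of letters is a description only.

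The CYP2C enzymes oxidise drugs such as paclitaxel and omeprazole and also arachidonic acid. CYP2C8 had log2 signals of 1.57, -0.65 and -2.23 in untransfected cells, -4.46, -4.52 and -4.30 after control siRNA, -1.19, -2.73 and -1.69 with β-catenin siRNA and -5.45, -6.13 and -6.13 (1 of 3 arrays well above background) with FZD8_CRD. With Wnt3a, CYP2C8 had -1.59, -3.65 and -1.07 in untransfected cells, -6.13, -6.13 and -5.79 (0 of 3 arrays well above background) after control siRNA, -3.51, -2.63 and -1.83 with β-catenin siRNA and -6.13, -6.13 and -6.13 (0 of 3 arrays well above background) with FZD8_CRD. All arrays of untransfected cells and of β-catenin siRNA lay above those of control siRNA and FZD8_CRD, and control siRNA with Wnt3a and 5 of the 6 FZD8_CRD arrays were not well above background. CYP2C8 differed by -5.47 (SE 0.70, adjusted p = 4.79e-06) with FZD8_CRD without Wnt3a, and by -7.02, -5.48 and -3.91 within slides 1 to 3, where the mean and the values of slides 2 and 3 are bounds because FZD8_CRD stood at the floor there. With control siRNA it differed by -3.99 (SE 0.70, adjusted p = 0.000546), and within slides by -6.03, -3.86 and -2.08. Where no array of a group was well above background, the fold is a bound, set on each array against the higher of the probe's own signal and the lowest signal among probes well above background. On that basis CYP2C8 was at least 15.4-fold lower with FZD8_CRD and Wnt3a than with Wnt3a alone (adjusted p = 0.000154) and at least 14.7-fold lower with control siRNA and Wnt3a (adjusted p = 0.00366). With β-catenin siRNA CYP2C8 was higher than with control siRNA, by 2.56 (SE 0.70, adjusted p = 0.0223) without Wnt3a and at least 9.99-fold with Wnt3a (adjusted p = 0.00288).

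Without Wnt3a, CYP2C18 measured -0.89, -2.40 and -3.27 in untransfected cells, -5.48, -5.51 and -5.59 after control siRNA, -3.80, -4.84 and -4.20 with β-catenin siRNA and -5.31, -6.13 and -4.42 (2 of 3 arrays well above background) with FZD8_CRD. Wnt3a-treated cells had CYP2C18 at -3.05, -5.12 and -2.92 without transfection, -5.99, -6.13 and -5.83 (1 of 3 arrays well above background) after control siRNA, -5.35, -4.04 and -4.55 with β-catenin siRNA and -5.25, -5.02 and -4.75 with FZD8_CRD. Untransfected replicate 1 was again highest, and the control siRNA and FZD8_CRD arrays without Wnt3a lay below the 3 untransfected arrays without Wnt3a. CYP2C18 differed by -3.34 (SE 0.56, adjusted p = 0.000423) with control siRNA, -2.29 (SE 0.56, adjusted p = 0.0158) with control siRNA in the presence of Wnt3a, and -3.10 (SE 0.56, adjusted p = 0.000183) with FZD8_CRD without Wnt3a. CYP2C19 is better known than CYP2C18 as a hepatic drug oxidase. For CYP2C19, the log2 signals without Wnt3a were -1.32, -3.35 and -4.71 in untransfected cells, -6.13, -6.13 and -6.13 (0 of 3 arrays well above background) after control siRNA, -3.78, -5.47 and -4.34 with β-catenin siRNA and -6.13, -6.13 and -6.13 (0 of 3 arrays well above background) with FZD8_CRD. Together with Wnt3a, CYP2C19 gave -4.04, -6.13 and -3.86 (2 of 3 arrays well above background) in untransfected cells, -6.13, -6.13 and -6.13 (0 of 3 arrays well above background) after control siRNA, -5.78, -5.26 and -4.64 with β-catenin siRNA and -6.13, -6.13 and -6.13 (0 of 3 arrays well above background) with FZD8_CRD. It was well above background on 11 arrays, all of them untransfected or with β-catenin siRNA. Without Wnt3a it was at least 7.73-fold lower with control siRNA (adjusted p = 0.00183) and at least 8.01-fold lower with FZD8_CRD (adjusted p = 0.000669) than in untransfected cells. CYP2C18 and CYP2C19 adjoin on chromosome 10.

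CYP2D6 oxidises codeine and many other basic drugs. CYP2D6 had log2 signals of -2.16, -2.28 and -2.55 in untransfected cells, -2.49, -2.56 and -2.67 after control siRNA, -2.37, -2.53 and -2.60 with β-catenin siRNA and -3.25, -3.16 and -3.19 with FZD8_CRD. With Wnt3a, CYP2D6 had -2.19, -2.15 and -2.54 in untransfected cells, -2.29, -2.50 and -2.33 after control siRNA, -2.51, -2.79 and -2.17 with β-catenin siRNA and -3.31, -3.05 and -3.08 with FZD8_CRD. The 6 FZD8_CRD arrays were below the other 18 with no overlap. CYP2D6 differed by -0.88 (SE 0.15, adjusted p = 9.28e-05) with FZD8_CRD without Wnt3a and by -0.85 (SE 0.15, adjusted p = 0.000167) with Wnt3a. When the mean of its kept probes stood for the gene, the adjusted p was 0.0544 and 0.0583, and neither was called. CYP2E1, the ethanol oxidase of perivenous hepatocytes, was well above background on 4 arrays, at -5.23 in untransfected replicate 1, -5.53 and -4.73 in untransfected replicates 1 and 3 with Wnt3a and -5.66 in β-catenin siRNA replicate 1 with Wnt3a. It was not tested. CYP2A7 and CYP2F1 were well above background on no array. CYP2A13, a nicotine-oxidising enzyme of the airway, lay between -5.04 and -1.88 and was called in no comparison, the highest value being control siRNA replicate 3 with Wnt3a.

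CYP3A4 is the main drug oxidase of adult liver and CYP3A7 its fetal form, and both are targets of PXR. Without Wnt3a, CYP3A4 measured -1.41, -2.35 and -3.19 in untransfected cells, -4.10, -4.26 and -4.15 after control siRNA, -3.02, -4.41 and -3.42 with β-catenin siRNA and -5.21, -5.10 and -3.92 with FZD8_CRD. Wnt3a-treated cells had CYP3A4 at -2.93, -4.16 and -2.48 without transfection, -3.36, -5.01 and -4.53 after control siRNA, -4.63, -4.93 and -3.91 with β-catenin siRNA and -4.87, -4.79 and -4.36 with FZD8_CRD. Untransfected replicate 1 was highest, and the control siRNA and FZD8_CRD arrays lay below all 3 untransfected arrays without Wnt3a. CYP3A4 differed by -2.43 (SE 0.51, adjusted p = 0.000688) with FZD8_CRD without Wnt3a, -1.48 (SE 0.51, adjusted p = 0.0264) with Wnt3a and -1.85 (SE 0.51, adjusted p = 0.0118) with control siRNA without Wnt3a. For CYP3A7, the log2 signals without Wnt3a were 4.16, 3.52 and 3.22 in untransfected cells, 2.31, 2.14 and 2.36 after control siRNA, 3.07, 2.87 and 3.18 with β-catenin siRNA and 1.41, 1.06 and 1.52 with FZD8_CRD. Together with Wnt3a, CYP3A7 gave 3.27, 2.10 and 2.84 in untransfected cells, 2.00, 1.30 and 1.46 after control siRNA, 1.84, 2.31 and 2.76 with β-catenin siRNA and 1.00, 1.16 and 1.20 with FZD8_CRD. All 6 FZD8_CRD arrays of CYP3A7 lay below the untransfected arrays of the same Wnt3a treatment. CYP3A7 differed by -2.30 (SE 0.27, adjusted p = 1.98e-06) with FZD8_CRD without Wnt3a, -1.62 (SE 0.27, adjusted p = 0.000101) with Wnt3a, -1.36 (SE 0.27, adjusted p = 0.00124) with control siRNA and -1.15 (SE 0.27, adjusted p = 0.0124) with control siRNA and Wnt3a. The windows before both genes are shown because they are nearly alike and the genes lie side by side on chromosome 7 (RefSeq, GRCh38.p14; CYP3A4 at chr7:99784185-99784434 and CYP3A7 at chr7:99735197-99735446, both minus strand). Capitals mark bases that differ between them in the alignment.
CYP3A4: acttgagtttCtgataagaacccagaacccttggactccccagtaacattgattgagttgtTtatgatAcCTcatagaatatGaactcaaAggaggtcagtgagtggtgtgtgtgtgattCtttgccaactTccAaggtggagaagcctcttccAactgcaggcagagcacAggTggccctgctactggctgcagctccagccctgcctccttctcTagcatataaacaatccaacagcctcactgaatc
CYP3A7: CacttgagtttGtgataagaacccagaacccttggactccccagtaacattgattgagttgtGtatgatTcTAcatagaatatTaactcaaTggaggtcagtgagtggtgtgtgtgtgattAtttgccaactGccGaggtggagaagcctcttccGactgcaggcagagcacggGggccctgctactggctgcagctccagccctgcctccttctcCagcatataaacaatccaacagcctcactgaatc
The pair is identical at 236 of 251 aligned columns (94.0%), with 13 mismatches and 2 gap columns, while CYP3A5 is 52.6% identical to CYP3A4 and 51.8% to CYP3A7. AGGTCA, a nuclear receptor half-site, is found in 12.1% of windows and in those of 8 members (CYP2B6, CYP2E1, CYP2S1, CYP3A4, CYP3A5, CYP3A7, CYP4V2 and CYP4X1). Every motif was searched on both strands, and none of the 3 lies within another.

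CYP3A5, the polymorphic CYP3A enzyme of liver and kidney, followed CYP3A7. CYP3A5 had log2 signals of 3.79, 3.31 and 2.99 in untransfected cells, 1.95, 1.89 and 2.05 after control siRNA, 2.69, 2.55 and 2.90 with β-catenin siRNA and 1.03, 0.85 and 1.25 with FZD8_CRD. With Wnt3a, CYP3A5 had 3.07, 1.90 and 2.89 in untransfected cells, 1.71, 1.09 and 1.52 after control siRNA, 1.49, 2.02 and 2.70 with β-catenin siRNA and 0.70, 0.90 and 0.99 with FZD8_CRD. All 6 FZD8_CRD arrays lay below the other arrays without Wnt3a, and the arrays of control siRNA were below those of β-catenin siRNA without Wnt3a. CYP3A5 differed by -2.32 (SE 0.28, adjusted p = 2.84e-06) with FZD8_CRD without Wnt3a, -1.76 (SE 0.28, adjusted p = 7.17e-05) with Wnt3a, -1.40 (SE 0.28, adjusted p = 0.00138) with control siRNA and -1.18 (SE 0.28, adjusted p = 0.0136) with control siRNA and Wnt3a. CYP3A43 was well above background on 1 array, untransfected replicate 1, at -5.33, and was not tested.

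Among the fatty acid hydroxylases, CYP4A11 makes 20-HETE from arachidonic acid and is a target of PPARA. Without Wnt3a, CYP4A11 measured 1.58, -0.0048 and -0.80 in untransfected cells, -2.11, -2.05 and -1.84 after control siRNA, -1.57, -2.08 and -1.57 with β-catenin siRNA and -3.60, -3.79 and -3.55 with FZD8_CRD. Wnt3a-treated cells had CYP4A11 at -0.79, -2.37 and -0.53 without transfection, -2.78, -3.16 and -2.63 after control siRNA, -2.66, -2.35 and -1.72 with β-catenin siRNA and -4.33, -4.49 and -3.90 with FZD8_CRD. The 6 FZD8_CRD arrays were the lowest, and untransfected replicate 1 was the highest by a wide margin. CYP4A11 differed by -3.90 (SE 0.46, adjusted p = 2.07e-06) with FZD8_CRD without Wnt3a, -3.01 (SE 0.46, adjusted p = 4.35e-05) with Wnt3a, -2.26 (SE 0.46, adjusted p = 0.00146) with control siRNA and -1.63 (SE 0.46, adjusted p = 0.0301) with control siRNA and Wnt3a. Its close paralog CYP4A22 lies in the same cluster on chromosome 1. CYP4A22 had log2 signals of -3.61, -4.94 and -4.99 in untransfected cells, -5.42, -5.20 and -6.13 (2 of 3 arrays well above background) after control siRNA, -5.34, -5.79 and -5.64 with β-catenin siRNA and -5.56, -6.03 and -5.78 with FZD8_CRD. With Wnt3a, CYP4A22 had -4.90, -5.52 and -5.26 in untransfected cells, -5.65, -5.60 and -6.09 (2 of 3 arrays well above background) after control siRNA, -5.24, -5.69 and -5.84 (1 of 3 arrays well above background) with β-catenin siRNA and -5.82, -6.13 and -5.78 (2 of 3 arrays well above background) with FZD8_CRD. Untransfected replicate 1 stood above all other arrays, and the rest lay at or below -4.90. CYP4A22 differed by -1.07 (SE 0.32, adjusted p = 0.0195) with control siRNA and -1.28 (SE 0.32, adjusted p = 0.00292) with FZD8_CRD, both without Wnt3a.

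CYP4B1 was the member called with Wnt3a in both untransfected and FZD8_CRD-treated cells. For CYP4B1, the log2 signals without Wnt3a were 1.79, 0.81 and -0.14 in untransfected cells, -1.03, -0.86 and -1.07 after control siRNA, -0.43, -0.88 and -0.29 with β-catenin siRNA and -1.08, -1.47 and -2.73 with FZD8_CRD. Together with Wnt3a, CYP4B1 gave -1.07, -1.95 and -0.47 in untransfected cells, -1.69, -1.89 and -1.81 after control siRNA, -2.54, -2.04 and -1.59 with β-catenin siRNA and -3.54, -3.54 and -3.24 with FZD8_CRD. The Wnt3a-treated arrays lay below those without Wnt3a of the same treatment in each of the 4 groups. CYP4B1 differed by -1.98 (SE 0.43, adjusted p = 0.0112) with Wnt3a in untransfected cells and -1.68 (SE 0.43, adjusted p = 0.0191) with Wnt3a in the presence of FZD8_CRD. Within slides 1 to 3 these were -2.86, -2.76 and -0.33, and -2.47, -2.07 and -0.51. In siRNA-transfected cells the differences with Wnt3a were -0.81 (adjusted p = 0.431) with control siRNA and -1.52 (adjusted p = 0.219) with β-catenin siRNA, which were not called. CYP4B1 was also lower with control siRNA without Wnt3a, with a difference of -1.81 (SE 0.43, adjusted p = 0.00434), and with FZD8_CRD, at -2.58 (SE 0.43, adjusted p = 7.12e-05) without and -2.28 (SE 0.43, adjusted p = 0.000317) with Wnt3a.

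The CYP4F enzymes inactivate leukotriene B4 and hydroxylate vitamins E and K and long fatty acids. CYP4F2 had log2 signals of -0.25, -0.57 and -0.66 in untransfected cells, -0.80, -0.80 and -0.63 after control siRNA, -0.43, -0.53 and -0.33 with β-catenin siRNA and -1.56, -1.61 and -1.18 with FZD8_CRD. With Wnt3a, CYP4F2 had -0.59, -1.03 and -0.51 in untransfected cells, -0.76, -0.90 and -0.60 after control siRNA, -0.87, -0.72 and -0.10 with β-catenin siRNA and -1.50, -1.37 and -1.11 with FZD8_CRD. The FZD8_CRD arrays were below the untransfected arrays of the same Wnt3a treatment. CYP4F2 differed by -0.96 (SE 0.18, adjusted p = 0.00025) with FZD8_CRD without and -0.61 (SE 0.18, adjusted p = 0.0107) with Wnt3a. Without Wnt3a, CYP4F3 measured 2.03, 1.67 and 1.57 in untransfected cells, 1.09, 1.08 and 1.22 after control siRNA, 1.30, 1.24 and 1.34 with β-catenin siRNA and 0.17, 0.0092 and 0.90 with FZD8_CRD. Wnt3a-treated cells had CYP4F3 at 1.25, 0.82 and 1.32 without transfection, 1.04, 0.83 and 0.92 after control siRNA, 0.55, 0.95 and 0.97 with β-catenin siRNA and 0.53, 0.56 and 0.75 with FZD8_CRD. The 3 untransfected arrays without Wnt3a were the highest of the 24. CYP4F3 differed by -1.39 (SE 0.18, adjusted p = 5.34e-06) with FZD8_CRD without Wnt3a, -0.52 (SE 0.18, adjusted p = 0.0279) with FZD8_CRD and Wnt3a, -0.63 (SE 0.18, adjusted p = 0.0157) with control siRNA and -0.62 (SE 0.18, adjusted p = 0.0471) with Wnt3a in untransfected cells. For CYP4F8, the log2 signals without Wnt3a were 2.73, 2.74 and 2.37 in untransfected cells, 2.61, 2.57 and 2.45 after control siRNA, 2.67, 2.68 and 2.66 with β-catenin siRNA and 1.86, 1.85 and 1.76 with FZD8_CRD. Together with Wnt3a, CYP4F8 gave 2.56, 2.32 and 2.31 in untransfected cells, 2.56, 2.31 and 2.27 after control siRNA, 2.37, 2.53 and 2.61 with β-catenin siRNA and 1.65, 1.75 and 1.64 with FZD8_CRD. The 6 FZD8_CRD arrays were all below the other 18. CYP4F8 differed by -0.79 (SE 0.10, adjusted p = 3.78e-06) with FZD8_CRD without and -0.72 (SE 0.10, adjusted p = 1.61e-05) with Wnt3a.

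CYP4F12 had log2 signals of 1.03, 0.90 and 0.80 in untransfected cells, 1.15, 1.04 and 1.15 after control siRNA, 1.25, 1.18 and 1.38 with β-catenin siRNA and 0.52, 0.51 and 0.52 with FZD8_CRD. With Wnt3a, CYP4F12 had 0.96, 0.64 and 0.81 in untransfected cells, 1.11, 0.84 and 0.84 after control siRNA, 0.95, 1.03 and 1.27 with β-catenin siRNA and 0.36, 0.30 and 0.36 with FZD8_CRD. As for CYP4F8, its 6 FZD8_CRD arrays were below the other 18. CYP4F12 differed by -0.39 (SE 0.10, adjusted p = 0.00263) with FZD8_CRD without and -0.46 (SE 0.10, adjusted p = 0.000819) with Wnt3a. CYP4F22, an omega-hydroxylase of ultra-long fatty acids needed for the skin barrier, had larger differences. Without Wnt3a, CYP4F22 measured 3.47, 3.83 and 3.41 in untransfected cells, 3.08, 3.13 and 2.80 after control siRNA, 3.07, 3.08 and 3.08 with β-catenin siRNA and 1.96, 1.57 and 1.39 with FZD8_CRD. Wnt3a-treated cells had CYP4F22 at 3.11, 2.11 and 3.37 without transfection, 2.20, 1.95 and 2.08 after control siRNA, 2.04, 2.61 and 2.96 with β-catenin siRNA and 0.91, 0.92 and 1.25 with FZD8_CRD. The FZD8_CRD arrays lay below all untransfected arrays with and without Wnt3a. CYP4F22 differed by -1.93 (SE 0.25, adjusted p = 5.34e-06) with FZD8_CRD without and -1.83 (SE 0.25, adjusted p = 1.46e-05) with Wnt3a. CYP4F11 did not exceed 1.76 on the 24 arrays and was called in no comparison. The 6 CYP4F genes form a cluster on chromosome 19, which holds 12 of the 34 members.

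CYP4V2 is a fatty acid hydroxylase whose loss causes a retinal dystrophy. For CYP4V2, the log2 signals without Wnt3a were -0.62, -0.79 and -0.70 in untransfected cells, -1.06, -1.12 and -1.01 after control siRNA, -1.18, -1.28 and -1.12 with β-catenin siRNA and -1.33, -1.43 and -1.67 with FZD8_CRD. Together with Wnt3a, CYP4V2 gave -0.98, -1.54 and -0.89 in untransfected cells, -1.37, -1.40 and -1.47 after control siRNA, -1.71, -1.38 and -1.41 with β-catenin siRNA and -1.59, -1.82 and -1.71 with FZD8_CRD. Untransfected arrays without Wnt3a were the highest and FZD8_CRD arrays were below untransfected arrays of the same Wnt3a treatment. CYP4V2 differed by -0.77 (SE 0.14, adjusted p = 0.000152) with FZD8_CRD without and -0.57 (SE 0.14, adjusted p = 0.00276) with Wnt3a. CYP4X1 is an orphan enzyme that oxidises anandamide. CYP4X1 had log2 signals of -0.67, -1.85 and -2.23 in untransfected cells, -3.22, -3.32 and -3.34 after control siRNA, -2.69, -3.42 and -2.99 with β-catenin siRNA and -4.38, -5.17 and -4.49 with FZD8_CRD. With Wnt3a, CYP4X1 had -2.22, -3.63 and -1.83 in untransfected cells, -3.76, -3.48 and -3.95 after control siRNA, -4.18, -3.67 and -3.43 with β-catenin siRNA and -6.13, -6.13 and -4.80 (1 of 3 arrays well above background) with FZD8_CRD. Its FZD8_CRD arrays were the lowest in both Wnt3a settings, with 1 of the 3 arrays with FZD8_CRD and Wnt3a well above background. CYP4X1 differed by -3.10 (SE 0.44, adjusted p = 1.32e-05) with FZD8_CRD without Wnt3a, -3.13 (SE 0.44, adjusted p = 1.91e-05) with Wnt3a and -1.71 (SE 0.44, adjusted p = 0.00733) with control siRNA. CYP4Z1, known from breast tissue, was on the probe that stood for it well above background only on the 3 untransfected arrays without Wnt3a, at -3.57, -5.05 and -5.19. Untransfected cells with Wnt3a measured -5.86, -5.83 and -5.91 and control siRNA without it -6.05, -6.11 and -6.13, while the 15 remaining arrays stood at -6.13. CYP4Z1 was at least 2.31-fold lower with Wnt3a, 2.76-fold lower with control siRNA and 2.87-fold lower with FZD8_CRD than in the 3 arrays. This probe passed the filter through these 3 arrays alone, so it could only be called lower against them, and its calls are a description. A second kept probe differed by -0.89, -0.95 and -0.95 in the same comparisons.

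The remaining family 2 members have roles outside general drug oxidation. CYP2R1 is the vitamin D 25-hydroxylase. Without Wnt3a, CYP2R1 measured 3.44, 3.37 and 3.33 in untransfected cells, 3.33, 3.29 and 3.40 after control siRNA, 3.36, 3.36 and 3.26 with β-catenin siRNA and 3.43, 3.50 and 3.59 with FZD8_CRD. Wnt3a-treated cells had CYP2R1 at 3.36, 3.42 and 3.32 without transfection, 3.37, 3.38 and 3.30 after control siRNA, 3.43, 3.40 and 3.41 with β-catenin siRNA and 3.69, 3.85 and 3.65 with FZD8_CRD. The 3 arrays with FZD8_CRD and Wnt3a were the highest of the 24. CYP2R1 rose by 0.36 (SE 0.060, adjusted p = 9.39e-05) with FZD8_CRD in the presence of Wnt3a and by 0.22 (SE 0.060, adjusted p = 0.0244) with Wnt3a in the presence of FZD8_CRD, comparisons that share the arrays given both. CYP2S1 oxidises retinoids and eicosanoids in epithelia. CYP2S1 had log2 signals of -3.54, -3.16 and -3.22 in untransfected cells, -2.16, -2.22 and -2.17 after control siRNA, -2.74, -2.78 and -2.83 with β-catenin siRNA and -2.17, -2.18 and -2.95 with FZD8_CRD. With Wnt3a, CYP2S1 had -2.97, -2.56 and -3.18 in untransfected cells, -2.32, -2.22 and -2.43 after control siRNA, -2.85, -2.94 and -2.86 with β-catenin siRNA and -2.98, -3.16 and -3.16 with FZD8_CRD. Control siRNA arrays were high in both Wnt3a settings, as were FZD8_CRD replicates 1 and 2 without Wnt3a, while FZD8_CRD replicate 3 was near the Wnt3a-treated FZD8_CRD arrays. CYP2S1 differed by 1.12 (SE 0.18, adjusted p = 0.000269) with control siRNA, 0.58 (SE 0.18, adjusted p = 0.0426) with control siRNA and Wnt3a, and 0.87 (SE 0.18, adjusted p = 0.000508) with FZD8_CRD. It was lower with β-catenin siRNA than with control siRNA, at -0.60 (SE 0.18, adjusted p = 0.0328) without and -0.56 (SE 0.18, adjusted p = 0.0472) with Wnt3a, and lower with Wnt3a in the presence of FZD8_CRD, at -0.67 (SE 0.18, adjusted p = 0.0238).

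CYP2U1 hydroxylates arachidonic acid. For CYP2U1, the log2 signals without Wnt3a were 0.68, 0.78 and 0.73 in untransfected cells, 0.34, 0.40 and 0.39 after control siRNA, 0.55, 0.48 and 0.73 with β-catenin siRNA and 0.31, 0.29 and -0.36 with FZD8_CRD. Together with Wnt3a, CYP2U1 gave 0.65, 0.29 and 0.74 in untransfected cells, 0.13, 0.22 and 0.24 after control siRNA, -0.0026, 0.31 and 0.55 with β-catenin siRNA and -0.27, -0.27 and -0.19 with FZD8_CRD. FZD8_CRD replicate 3 was the lowest array, followed by the 3 with FZD8_CRD and Wnt3a. CYP2U1 differed by -0.65 (SE 0.15, adjusted p = 0.00167) with FZD8_CRD without and -0.80 (SE 0.15, adjusted p = 0.000354) with Wnt3a. CYP2W1 is expressed in fetal gut and in tumours. CYP2W1 had log2 signals of 8.81, 8.69 and 8.76 in untransfected cells, 8.76, 8.65 and 8.60 after control siRNA, 8.47, 8.63 and 8.52 with β-catenin siRNA and 8.38, 8.63 and 8.43 with FZD8_CRD. With Wnt3a, CYP2W1 had 8.77, 8.81 and 8.68 in untransfected cells, 8.69, 8.66 and 8.67 after control siRNA, 8.65, 8.80 and 8.72 with β-catenin siRNA and 8.53, 8.72 and 8.55 with FZD8_CRD. All 24 arrays lay within 8.38 to 8.81, and the FZD8_CRD arrays without Wnt3a were below the untransfected arrays by a narrow margin. CYP2W1 differed by -0.27 (SE 0.073, adjusted p = 0.00528) with FZD8_CRD without Wnt3a. CYP2J2, an arachidonic acid epoxygenase, lay between 1.13 and 1.53 on the 24 arrays and was called in no comparison.

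**Figure D2:**
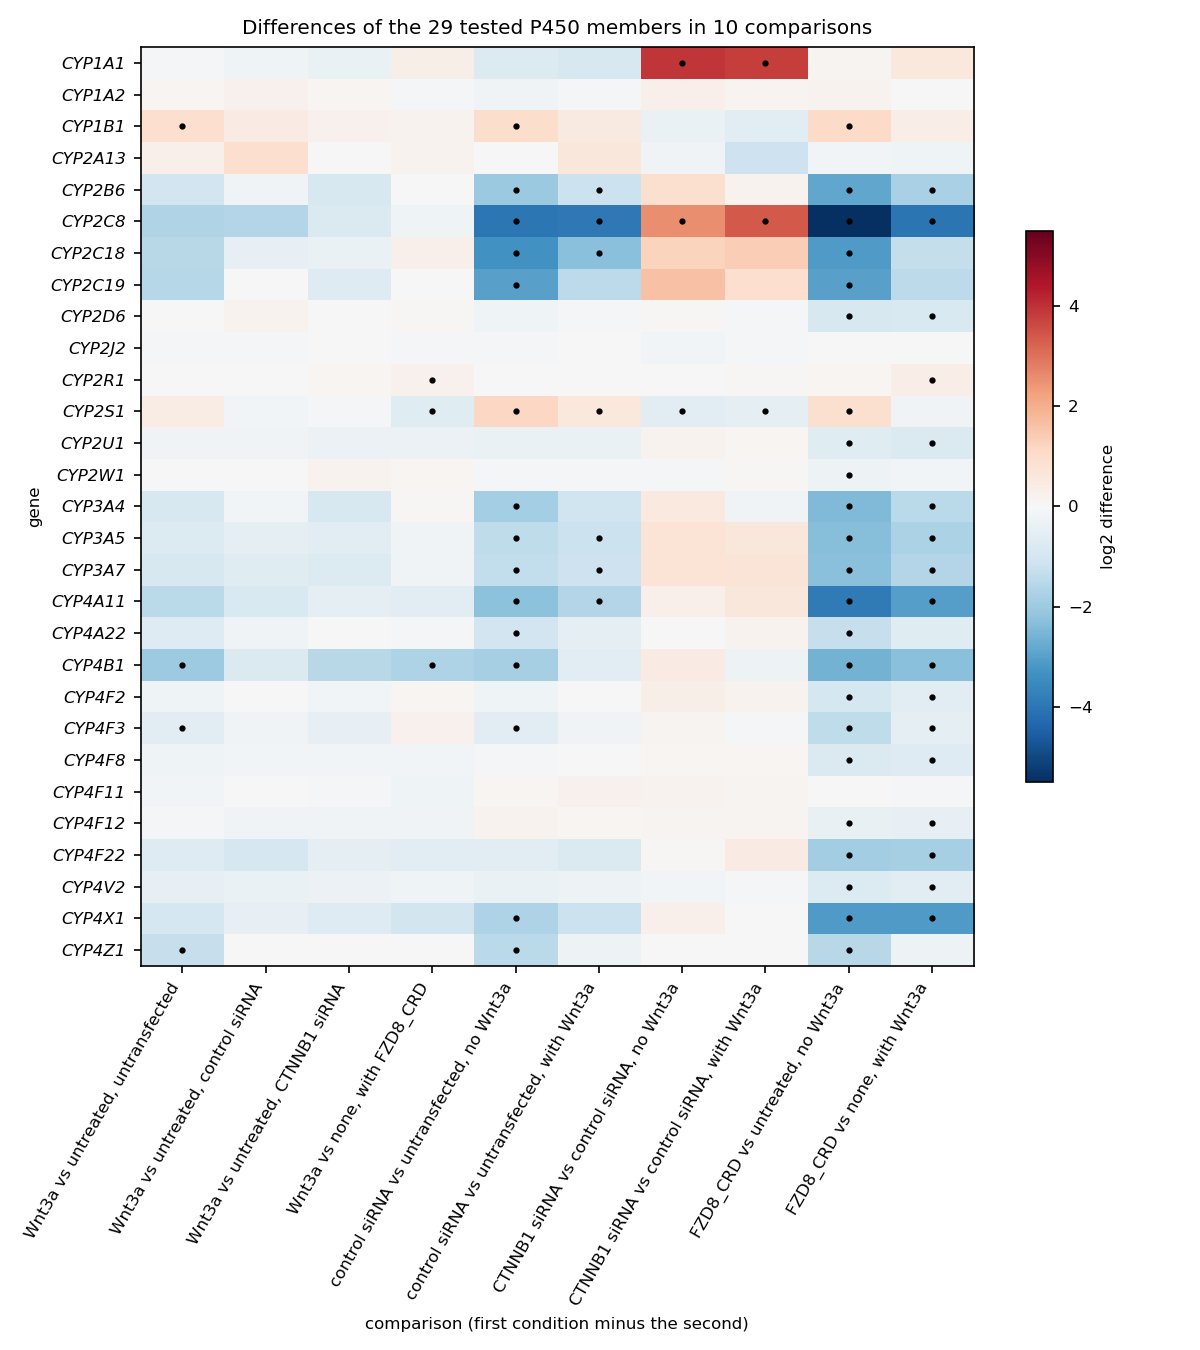
Log2 difference of the 29 tested members in 10 comparisons, first condition minus the second, with a dot where the adjusted p was under 0.05. The 2 comparisons with FZD8_CRD hold 21 and 16 lower calls, and CYP1A1 is at 3.92 and 3.79 with β-catenin siRNA.

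With FZD8_CRD and no Wnt3a, CYP2B6, every tested CYP2C, CYP3A and CYP4A member and 5 of 6 CYP4F members were lower than in untreated cells. Of the 29 tested members 21 were called lower (22.2% of all genes tested), among them CYP4Z1, which could only be called lower, and 2 higher, CYP1B1 and CYP2S1 (19.7%). By the study's thresholds (fold above 1.5 or below 0.7 and p below 0.01, taken here without adjustment) 21 members passed (22.4% of genes). Among the 23 members on all arrays 15 were lower and 2 higher, against 22.8% and 22.2% of the genes on all arrays, and their median difference was -0.77 against -0.058. Subfamily medians were CYP1A 0.18, CYP2C -3.10, CYP3A -2.32, CYP4A -2.59 and CYP4F -0.88, over 2, 3, 3, 2 and 6 tested members, against -0.085 over all genes. The 13 subfamilies with a single tested member ran from -3.10 (CYP4X) to 1.06 (CYP1B). The sign of all 23 calls was the same within each of the 3 slides, and no call was lost without any single array. Without replicate 1 of all conditions, CYP2S1 (adjusted p = 0.0873), CYP2W1 (0.171) and CYP3A4 (0.0513) were not called, and without replicate 3 CYP2W1 was not (0.0666). When only the conditions compared were fitted, CYP2W1 (0.0779) and CYP4A22 (0.0535) were not called. Scaling to the 7 spike-in probes moved the median of all genes to -0.48 and called 550 genes higher and 6827 lower. With it the same 21 members were called lower, at a median of -1.35 over the 29, and CYP1B1 and CYP2S1 were not called.

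With FZD8_CRD in the presence of Wnt3a, CYP4A11 and CYP4B1 had the largest differences of the 23 members on all arrays. Of 29, 16 members were lower (18.9% of genes) and CYP2R1 was higher (18.2%), and 15 members passed the study's thresholds (18.9%). Of those on all arrays, 14 were lower and 1 higher, against 20% and 20.1% of genes, with a median of -0.57 against -0.062. The median differences by subfamily were CYP1A 0.29, CYP2C -1.45, CYP3A -1.62, CYP4A -1.85 and CYP4F -0.57, against -0.080 over all genes, and single-member subfamilies ran from -3.13 (CYP4X) to 0.36 (CYP2R). All 17 calls had the same sign within each slide, and with the slide as a block CYP4A22 was also called lower. CYP3A4 was not called without untransfected replicate 1 (0.0906) or 3 (0.122) or FZD8_CRD replicate 1 (0.0785) or 2 (0.0716), all with Wnt3a, and CYP4F3 without any of the same arrays (0.103, 0.107, 0.0856 and 0.0792), as adjusted p. CYP4F2 was not called without FZD8_CRD replicate 1 (0.0541) or untransfected replicate 3 (0.0515). Without replicate 1 of all conditions CYP3A4 (0.176), CYP4F2 (0.208), CYP4F3 (0.26) and CYP4V2 (0.0665) were not called, nor CYP4F3 without replicate 2 (0.054) or CYP3A4 and CYP4V2 without replicate 3 (0.094 and 0.0533). CYP4V2 was not called either when only the conditions compared were fitted (0.0636), nor CYP3A4 and CYP4F3 with no filter (0.0668 and 0.0656). With the spike-in scaling (median of all genes -0.17; 669 genes higher and 1685 lower), 12 members were lower, none was higher, and CYP2R1, CYP4F2, CYP4F3, CYP4F12 and CYP4V2 were not called.

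Hepatocyte and proliferation markers moved in the same comparisons. With FZD8_CRD without Wnt3a all 7 hepatocyte markers were lower, led by TF (-4.14), APOA1 (-2.76) and TTR (-2.41), and all 4 proliferation markers were higher, led by TOP2A (1.76) and CCNB1 (1.67). With Wnt3a 4 of 7 hepatocyte markers were lower, led by APOB (-3.54) and FGB (-2.21), and 3 of 4 proliferation markers were higher, led by CCNB1 (1.03). The mean of the 4 proliferation markers was 2.14, 2.33 and 2.64 in untransfected cells and 3.88, 3.95 and 3.45 with FZD8_CRD, and 2.56, 3.14 and 2.40 and 3.57, 3.52 and 3.32 with Wnt3a. The part of these markers in the P450 differences was not tested, and in these bulk samples fewer hepatocyte-like cells and less P450 RNA per cell cannot be told apart. Of the biliary and progenitor markers, CD44 (0.54) and KRT19 (0.36) rose and SOX9 (-0.53) fell, and with Wnt3a the same 3 were called (0.59, 0.59 and -0.75). Of the mesenchymal markers, VIM (1.25) and ACTA2 (0.30) rose and COL1A2 (-1.45) and FN1 (-0.98) fell, and with Wnt3a VIM (1.67) and ACTA2 (0.25) rose and FN1 (-0.93) fell. KDR fell in both (-1.51 and -2.06), and CD68 fell without Wnt3a (-1.27).

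All 16 genes of a list of nuclear receptors and liver factors were tested. With FZD8_CRD without Wnt3a 12 were lower (22.2% of all genes) and 1 higher (19.7%). Their median was -1.13, against -0.085 over all genes. The largest were the liver factor ONECUT1 (-4.47), the bile acid receptor NR1H4 (-3.61), PROX1 (-2.84), the PXR gene NR1I2 (-1.91) and HNF4A (-1.70), and the glucocorticoid receptor gene NR3C1 (0.29) was the one that rose. With Wnt3a 10 were lower (18.9% of all genes) and NR3C1 was higher (18.2%). The lower ones were led by ONECUT1 (-4.45), NR1H4 (-2.70), FOXA1 (-2.04), PROX1 (-1.86) and HNF4A (-1.22). The part of these factors in the P450 differences was not tested. Of the P450 redox partners, 4 of 5 were tested (POR, the main electron donor, was not), and cytochrome b5, CYB5A (-0.63), fell without Wnt3a. With Wnt3a CYB5A (-0.63) fell and PGRMC1 (0.22) rose.

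**Figure D3:**
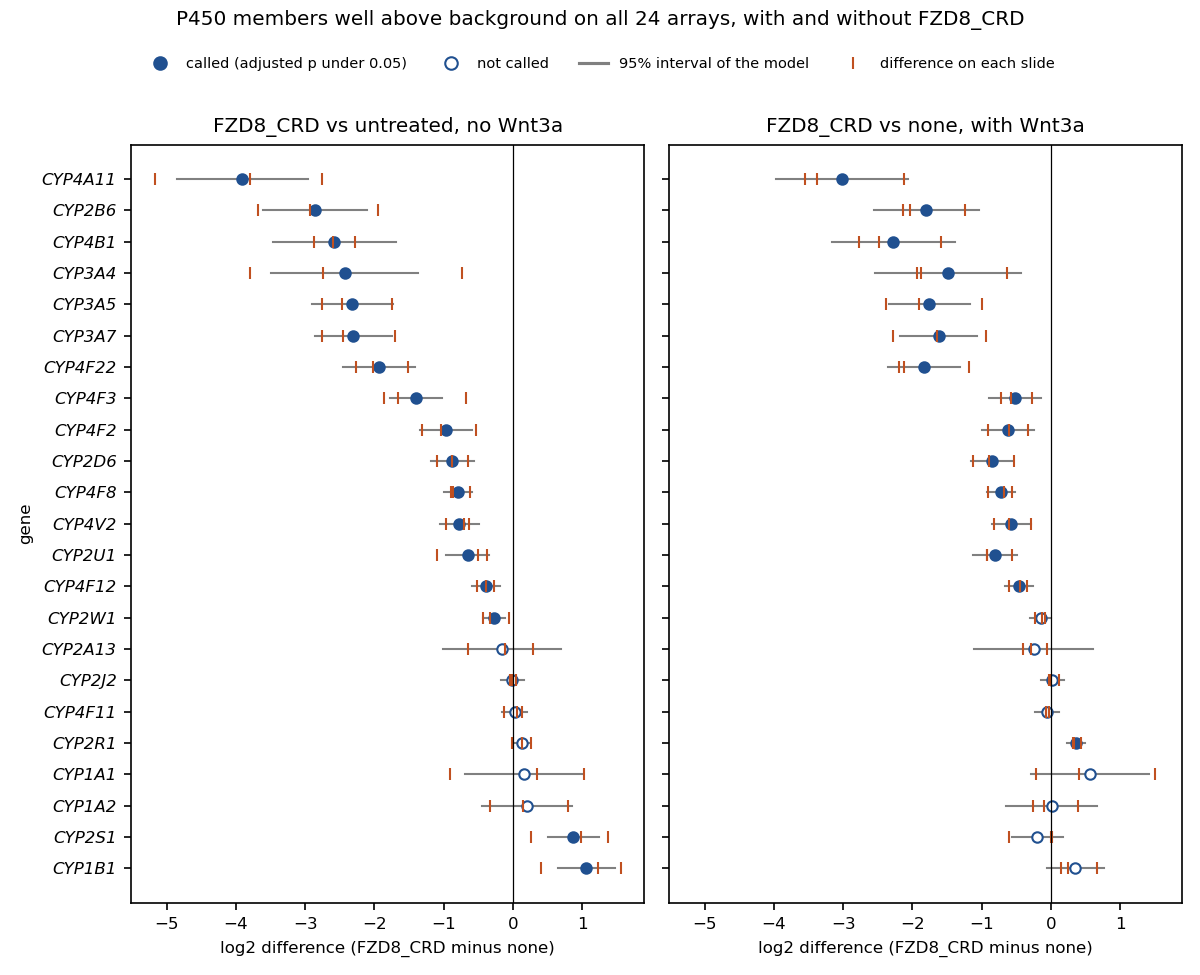
Log2 difference with FZD8_CRD of the 23 members well above background on all 24 arrays, without Wnt3a (left) and with Wnt3a (right), with 95% intervals of the model and the difference within each slide as ticks. CYP4A11 is lowest at -3.90 and -3.01, and CYP2J2 and CYP4F11 lie near 0 in both.

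Control siRNA compared with no transfection covers electroporation, handling and the control sequence together. Without Wnt3a 13 of 29 tested members were lower (10.1% of genes) and CYP1B1 and CYP2S1 were higher (12.3%), and 15 passed the study's thresholds (10.9%). The lower ones were CYP2B6, the 3 CYP2C and 3 CYP3A members tested, CYP4A11, CYP4A22, CYP4B1, CYP4F3, CYP4X1 and CYP4Z1, the last of which could only be called lower. With the slide as a block CYP4V2 was also lower. Of the members on all arrays 7 were lower and 2 higher, against 10.1% and 13.8% of genes, with a median of -0.25 against -0.018. By subfamily, the medians were CYP1A -0.48, CYP2C -3.34, CYP3A -1.40, CYP4A -1.67 and CYP4F -0.16, against -0.033 over all genes, and single-member subfamilies ran from -2.04 (CYP2B) to 1.12 (CYP2S). This comparison shares the untransfected arrays with that of FZD8_CRD, and all 15 calls had the same sign within each slide. Untransfected replicate 1 was the highest array for many members, and without replicate 1 of all conditions 1 of the 15 calls was left (CYP4Z1). Without untransfected replicate 1 alone 11 were left, and CYP3A4 (0.0917), CYP4A22 (0.162), CYP4F3 (0.105) and CYP4X1 (0.0666) were not called, as adjusted p. CYP4A22 was not called without control siRNA replicate 3 (0.117) either, nor CYP4F3 without control siRNA replicate 1 (0.0516). Without replicate 2 of all conditions CYP3A4 (0.0767), CYP4A22 (0.051), CYP4B1 (0.0746) and CYP4F3 (0.0947) were not called, and without replicate 3 CYP4A22 was not (0.0785). With only the conditions compared in the fit, CYP2C19 (0.0521), CYP4A22 (0.157) and CYP4Z1 (0.0663) were not, while CYP2U1, CYP4F22 and CYP4V2 were also lower. Genes called in that fit went from 3021 higher and 2479 lower to 2161 and 1550. With the spike-in scaling (median of all genes -0.32; 122 genes higher and 1439 lower) the same 13 were lower and none was higher.

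With Wnt3a present, control siRNA gave 6 lower members (3.59% of genes), CYP2B6, CYP2C8, CYP2C18, CYP3A5, CYP3A7 and CYP4A11, and CYP2S1 higher (5.45%), and 7 passed the study's thresholds (5.48%). With the slide as a block CYP4F22 was also lower and CYP4F11 higher. Among the 23 members on all arrays 4 were lower and 1 higher, against 3.63% and 6.08% of genes, with a median of -0.081 against -0.013. Medians within subfamilies were CYP1A -0.48, CYP2C -2.29, CYP3A -1.15, CYP4A -1.09 and CYP4F -0.027, against -0.020 over all genes, and single-member subfamilies ran from -1.17 (CYP4X) to 0.63 (CYP2A). The count fell from 7 to 1 without untransfected replicate 1 or control siRNA replicate 2, to 2 and 3 without replicate 3 of untransfected and control siRNA cells and to 4 without control siRNA replicate 1, and it rose to 14 without untransfected replicate 2. Without replicate 1 or replicate 3 of all conditions it was 0 and 1. These counts too stand without the share of all genes called, and are no result about the members alone. CYP2C8 held its call without each single array. CYP2B6, CYP2S1 and CYP4A11 lost theirs without any of these arrays but untransfected replicate 2, with adjusted p of 0.0794 to 0.199, 0.0774 to 0.174 and 0.0536 to 0.17. CYP2C18, CYP3A5 and CYP3A7 lost theirs without untransfected replicate 1 (0.114, 0.111 and 0.107) or control siRNA replicate 2 (0.0806, 0.0934 and 0.0844), CYP2C18 and CYP3A5 also without untransfected replicate 3 (0.0743 and 0.0572) and CYP3A7 without control siRNA replicate 3 (0.0508). None of the 7 was called with only the conditions compared in the fit (adjusted p of 0.176 to 0.223). Over all genes, calls in that fit went from 1342 higher and 885 lower to 0 and 1. With the spike-in scaling (median of all genes 0.25) CYP2C8 and CYP2C18 were lower and none was higher.

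All 7 hepatocyte markers were lower with control siRNA without Wnt3a, led by TF (-3.01) and TTR (-2.40), and 5 of 7 with Wnt3a, led by TF (-3.03) and ALB (-2.09). All 4 proliferation markers were higher without Wnt3a, led by TOP2A (1.14), and 3 of 4 with Wnt3a, led by TOP2A (0.87). Their part in the P450 differences was not tested. Of the nuclear receptors and liver factors 9 were lower (10.1% of all genes) and 1 higher (12.3%) without Wnt3a, led by ONECUT1 (-2.94), PROX1 (-2.45) and NR1H4 (-2.30). With Wnt3a 6 were lower (3.59% of all genes), led by ONECUT1 (-2.96) and NR1H4 (-2.13). The part of these factors was not tested either. CD44 fell in both (-0.46 and -0.25), and without Wnt3a VIM (0.77) rose and COL1A2 (-0.99) fell. No redox partner, endothelial or leukocyte marker was called in either.

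With β-catenin siRNA against control siRNA, CYP1A1 and CYP2C8 rose and CYP2S1 fell, both without and with Wnt3a. Without Wnt3a the 2 higher calls of 29 stood beside 4.4% of genes and the 1 lower call beside 6.17%, and 4 members passed the study's thresholds (5.66%). With Wnt3a the same calls stood beside 4.08% and 6.5%, and 4 members passed the study's thresholds (6.46%). Of the 23 on all arrays 1 was higher and 1 lower in each, against 4.85% and 6.6% of genes without and 4.51% and 6.63% with Wnt3a, with medians of 0.16 and 0.087 against -0.029 and -0.0076. The subfamily medians stood at CYP1A 2.11, CYP2C 1.60, CYP3A 0.75, CYP4A 0.13 and CYP4F 0.16 without Wnt3a, against -0.030 over all genes, and CYP1A 1.97, CYP2C 1.34, CYP3A 0.63, CYP4A 0.40 and CYP4F 0.15 with Wnt3a, against -0.014. Single-member subfamilies ran from -0.60 (CYP2S) to 0.89 (CYP2B) and from -1.14 (CYP2A) to 0.20 (CYP2B). The CYP3A members had differences without Wnt3a of 0.77 (adjusted p = 0.0747) for CYP3A7 and 0.75 (adjusted p = 0.1) for CYP3A5, which were not called. With the slide as a block CYP3A7 was called higher, and with Wnt3a CYP1B1 was called lower. With only the conditions compared in the fit, calls without Wnt3a went from 3 to 10. CYP2B6, CYP2C18, CYP2C19, CYP3A5, CYP3A7 and CYP4F2 were also higher and CYP1B1 also lower. Over all 24643 genes, calls in that fit went from 1085 higher and 1520 lower to 1931 and 2390. With Wnt3a CYP1B1 was also lower, beside 846 genes higher and 1393 lower in place of 1006 and 1602. CYP2S1 lost its call without any one of the 6 arrays compared, with adjusted p of 0.0708 to 0.11 without and 0.0715 to 0.152 with Wnt3a. CYP2C8 lost its call without Wnt3a when control siRNA replicate 1, 2 or 3 (0.0706, 0.0666 and 0.0535) or β-catenin siRNA replicate 1 or 3 (0.0989 and 0.0812) was left out, each leaving CYP1A1 alone, and with Wnt3a when replicate 2 of all conditions was (0.0946). With normexp background correction CYP2C8 was called in neither (0.0879 and 0.143), and without Wnt3a it was not called with the deposited table (0.0783), with no filter (0.0619), with a floor of 1 intensity unit (0.0828) or without replicate 1, 2 or 3 of all conditions (0.167, 0.134 and 0.0562). CYP2S1 was called in neither with quantile normalization (0.0782 and 0.11), the deposited table (0.0544 and 0.0857), no filter (0.0565 and 0.0784), without replicate 1 (0.282 and 0.271) or 2 (0.205 and 0.395) of all conditions, or with the spike-in scaling, which left 2 higher members and none lower in each. That scaling put the median of all genes at 0.060 and -0.22, with 70 genes higher and 110 lower, and 40 and 600.

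Around these calls, ONECUT1 (1.46), PROX1 (1.38) and RXRA (0.30) of the nuclear receptors and liver factors rose without Wnt3a and none fell. With Wnt3a ONECUT1 (1.75), FOXA2 (0.35) and NR3C1 (0.28) rose and NR2F1 (-0.60) fell. The part of these factors in the P450 differences was not tested. CYB5R3, the cytochrome b5 reductase gene, rose in both (0.28 and 0.30). Of the hepatocyte markers none was called without Wnt3a, and ALB (1.19) rose with it. VIM fell in both (-0.86 and -0.84), and with Wnt3a COL1A2 (-1.75), COL1A1 (-1.47) and FN1 (-1.03) fell too. CD14 fell in both (-1.12 and -1.30), PECAM1 fell without Wnt3a (-0.94), CD44 rose without it (0.45) and SOX9 fell with it (-0.57). No proliferation marker was called in either.

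Wnt3a in untransfected cells lowered CYP4B1 and CYP4F3 and raised CYP1B1. With CYP4Z1, which could only be called lower here, 3 of 29 were called lower (2.61% of genes) and 1 higher (2.99%). At the study's thresholds 8 members passed (4.42%). Of the members on all arrays 2 were lower and 1 higher, against 2.8% and 3.25% of genes, with a median of -0.17 against 0.015. By subfamily, the medians were CYP1A 0.0082, CYP2C -1.55, CYP3A -0.87, CYP4A -1.10 and CYP4F -0.22, against 0.014 over all genes, and single-member subfamilies ran from -1.98 (CYP4B) to 0.92 (CYP1B). CYP3A7 (-0.89, adjusted p = 0.0548), CYP4A11 (-1.48, adjusted p = 0.061) and CYP2B6 (-1.06, adjusted p = 0.0885) were not called, but all 3, and CYP4V2, were called lower with the slide as a block (8 calls). The block also took genes called higher and lower from 738 and 643 to 1502 and 1322. The 4 calls had the same sign within each slide, while CYP2C8, not called at -1.67 (adjusted p = 0.167), was at -3.16 within slide 1 and 1.16 within slide 3. Single arrays moved the count: it was 1 without untransfected replicate 1 and 0 without Wnt3a-treated replicate 2, but 11 and 10 without replicate 3 of untreated and treated cells, and 0, 0 and 17 without replicates 1, 2 and 3 of all conditions. The share of all genes called in these fits is not given, so the counts are no result about the members alone. CYP1B1 (0.072 and 0.108), CYP4B1 (0.0716 and 0.107) and CYP4F3 (0.219 and 0.324) were not called without either of the first 2 arrays, nor CYP4Z1 without the second (0.0609), as adjusted p. CYP4F3 was also not called without treated replicate 1 (0.0588) or untreated replicate 2 (0.103) or with no filter (0.102). With only the conditions compared in the fit none of the 4 was called (0.453 to 0.472). Over all genes, calls in that fit went from 738 higher and 643 lower to 2 and 0. With the spike-in scaling (median of all genes -0.38; 22 genes higher and 284 lower), 8 members were lower (CYP2B6, CYP2C18, CYP3A5, CYP3A7, CYP4A11, CYP4B1, CYP4F3 and CYP4Z1) and none was higher.

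Wnt3a after siRNA gave no call among the members with all conditions in the fit and no block. With control siRNA limma called 0 of 29 (2.11% of genes), with 6 members at an unadjusted p under 0.05, and 1, CYP4F22, passed the study's thresholds (2.76%). With β-catenin siRNA it called 0 (0.0406% of genes), with 8 at an unadjusted p under 0.05, and 1, CYP4B1, passed the study's thresholds (1.27%). With the slide as a block CYP4F22 was called lower with control siRNA and no member with β-catenin siRNA. With only the conditions compared in the fit, control siRNA gave 5 calls, CYP1B1 higher and CYP2C8, CYP4A11, CYP4B1 and CYP4F22 lower, and β-catenin siRNA none. In that fit genes called higher and lower with control siRNA went from 269 and 251 to 489 and 840. None of the members on all arrays was called in either, and their medians were -0.16 against 0.020 over genes with control siRNA and -0.19 against 0.030 with β-catenin siRNA. Medians of the subfamilies were CYP1A 0.0085, CYP2C -0.46, CYP3A -0.52, CYP4A -0.52 and CYP4F -0.17 with control siRNA, against 0.024 over all genes, and CYP1A -0.13, CYP2C -0.70, CYP3A -0.74, CYP4A -0.25 and CYP4F -0.18 with β-catenin siRNA, against 0.030. Single-member subfamilies ran from -0.81 (CYP4B) to 0.91 (CYP2A) and from -1.52 (CYP4B) to 0.23 (CYP1B). With the spike-in scaling the medians of all genes were 0.18 and -0.10, genes called higher and lower went from 269 and 251 to 53 and 1 with control siRNA and from 9 and 1 to none with β-catenin siRNA (5 and 2 with quantile normalization), and no member was called.

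In the presence of FZD8_CRD, Wnt3a lowered CYP4B1 and CYP2S1, 2 of 29 (3.94% of genes), and raised CYP2R1 (4.36%), and 2 members passed the study's thresholds (5.73%). Among the 23 on all arrays 2 were lower and 1 higher, against 4.35% and 4.46% of genes, with a median of -0.10 against 0.013. The subfamily medians stood at CYP1A 0.11, CYP2C 0.00, CYP3A -0.18, CYP4A -0.36 and CYP4F -0.16 (CYP2C is set by CYP2C19, at the floor on all 6 arrays, so no change was measurable), against 0.018 over all genes, and single-member subfamilies ran from -1.68 (CYP4B) to 0.22 (CYP2R). All 3 calls were lost without replicate 1 or 2 of FZD8_CRD, alone or with Wnt3a, without replicate 1 or 2 of all conditions and with only the conditions compared in the fit. Over all genes, calls in that last fit went from 1074 higher and 970 lower to none. Without the single arrays the adjusted p was 0.0693 to 0.163 for CYP4B1, 0.0523 to 0.186 for CYP2R1 and 0.0501 to 0.188 for CYP2S1, which was also lost without replicate 3 given both agents (0.0778). Without FZD8_CRD replicate 3 the count was 6, and with the slide as a block CYP4F11 was also lower. CYP4B1 and CYP2R1 were not called with normexp background correction, nor CYP4B1 with no filter. With the spike-in scaling (median of all genes -0.073; 155 genes higher and 89 lower) CYP4B1 was lower and no other member was called.

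Mesenchymal markers were the list most often called with Wnt3a. In untransfected cells 4 of 5 rose, led by COL1A1 (1.86) and COL1A2 (1.14), with control siRNA 3 rose, led by COL1A1 (2.19), and with FZD8_CRD all 5 rose, led by COL1A1 (2.65). With β-catenin siRNA limma called none of them. Their mean signal was -0.031, -0.22 and -0.30 in untransfected cells and 0.59, 1.04 and 0.53 with Wnt3a, and -0.63, -0.57 and 0.15 with FZD8_CRD and 1.00, 1.12 and 0.91 with both. COL1A2 stood above background on 4 of the 6 β-catenin siRNA arrays and on 1 of 3 with FZD8_CRD alone. Their part in the P450 differences was not tested. CD44 rose in the same 3 settings (0.27, 0.48 and 0.31). Of the hepatocyte markers none was called with Wnt3a in untransfected or siRNA-transfected cells, while with FZD8_CRD TTR (2.62) and APOA1 (2.22) rose and APOB (-2.15) fell, and CD68 (0.90) rose and KDR (-0.99) fell there. No proliferation marker was called. Of the nuclear receptors and liver factors, PPARA (-0.55) and RXRA (-0.43) fell in untransfected cells and NR2F1 (0.50) rose with control siRNA. With FZD8_CRD FOXA1 (-1.29), CEBPA (-0.67) and PPARA (-0.50) fell and NR2F1 (0.59) rose, and of the redox partners CYB5B (-0.65) and CYB5A (-0.37) fell. The part of these factors and partners in the P450 differences was not tested.

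**Figure D4:**
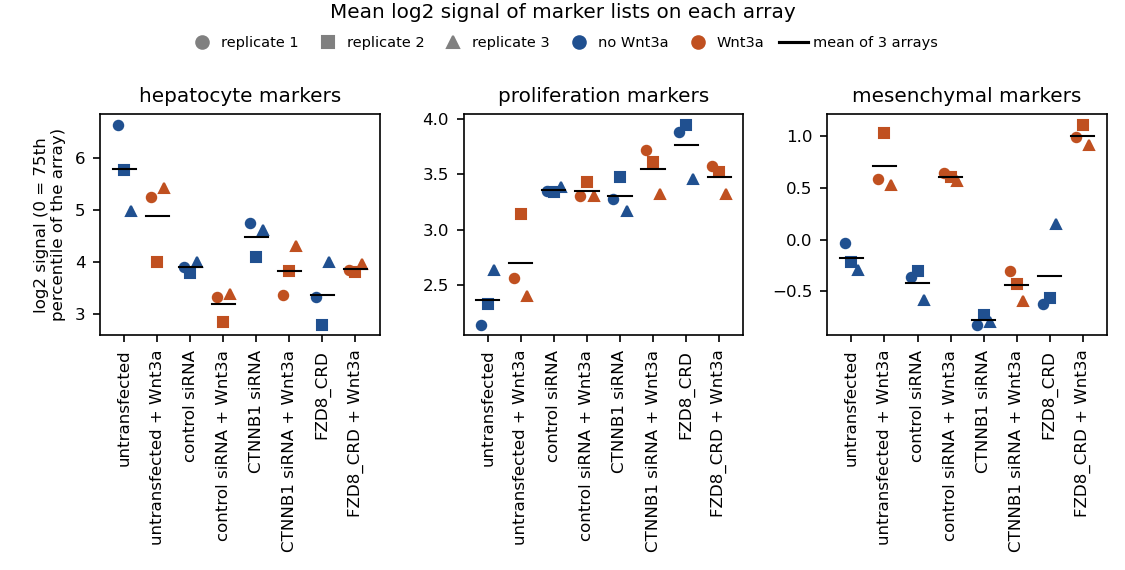
Mean log2 signal of the hepatocyte, proliferation and mesenchymal marker lists on each array, with 0 at the 75th percentile of the array, by condition (blue without and orange with Wnt3a; shapes are replicates and bars are means of 3 arrays). Hepatocyte markers are highest in untransfected replicate 1 at 6.65, and proliferation markers rise from 2.14, 2.33 and 2.64 to 3.88, 3.95 and 3.45 with FZD8_CRD.

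Whether Wnt3a acted differently after β-catenin siRNA or with FZD8_CRD was tested directly. For β-catenin siRNA minus control siRNA limma called 0 of 29 members (0.0162% of genes), with 0 at an unadjusted p under 0.05 and 0 at the study's thresholds (0.568%). For FZD8_CRD minus none it called 0 (0.073% of genes), with 6 at an unadjusted p under 0.05 and 3 (CYP2S1, CYP4F3 and CYP4Z1) at the study's thresholds (2.97%). CYP4Z1 is at the floor on all FZD8_CRD arrays, so its value here only turns the sign of its difference in untransfected cells. The lowest adjusted p among members with FZD8_CRD was that of CYP2S1, at -1.07 (SE 0.25, adjusted p = 0.0906), which was called with the slide as a block. For CYP4B1 the tests gave -0.72 (adjusted p = 1) for β-catenin siRNA and 0.30 (adjusted p = 0.947) for FZD8_CRD, and a missed threshold does not make these responses equal. No member on all arrays was called, with medians of -0.12 against 0.015 over genes and 0.12 against -0.0020. Medians within subfamilies were CYP1A -0.14, CYP2C 0.094, CYP3A -0.12, CYP4A 0.27 and CYP4F -0.024 for β-catenin siRNA, against 0.011 over all genes, and CYP1A 0.10, CYP2C 1.55, CYP3A 0.69, CYP4A 0.74 and CYP4F 0.085 for FZD8_CRD, against 0.0063. The CYP2C value for FZD8_CRD is that of CYP2C19, which is at the floor on all FZD8_CRD arrays, so no response was measurable there. Single-member subfamilies ran from -0.93 (CYP2A) to 0.18 (CYP2W) and from -1.07 (CYP2S) to 1.26 (CYP4Z), the last set by the floor. The count for FZD8_CRD was 2, 3 and 1 without replicate 3 of untransfected, FZD8_CRD and untransfected Wnt3a-treated cells, and 4 without replicate 3 of all conditions. Spike-in scaling put the medians of all genes at -0.28 and 0.31, and for FZD8_CRD it called 31 genes higher and 2 lower in place of 5 and 13 (12 and 13 with quantile normalization), with no member called in either.

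Close paralogs such as CYP3A4, CYP3A5 and CYP3A7, or CYP4A11 and CYP4A22, may cross-hybridise, so that part of a probe's signal can come from a relative, and probe sequences and protein identities were not used here. Where a member had a second kept probe, it did not always follow the one that stood for the gene. For CYP4A11 the second probe gave -1.35 with FZD8_CRD, against -3.90. For CYP4F2 it gave -2.06 with FZD8_CRD and -1.71 with control siRNA, against -0.96 and -0.25, and for CYP4F11 0.58 with control siRNA, against 0.10. For CYP2D6 the second probe differed by 1.29 with β-catenin siRNA, against 0.069. With FZD8_CRD the pairs of probes for CYP1B1, CYP2S1, CYP3A5 and CYP3A7 gave close values, at 0.99, 0.99, -2.51 and -2.77 for the second probes. When the mean of its kept probes stood for the gene, CYP2S1 was not called with control siRNA and Wnt3a or with β-catenin siRNA and Wnt3a. The call of CYP4A11 with control siRNA and Wnt3a was lost in the same way.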

How the data were processed

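Total RNA of 24 HepaRG samples was hybridised to one-colour Agilent arrays. Per the file headers, the spot intensity was background-subtracted and spatially detrended by Agilent Feature Extraction (version 10.7.3.1 in the submitters' processing notes), with a flag for each spot well above background. The log2 table deposited by the authors was matched to the scanner values (log2, scaled to the 75th percentile and centred by probe) and served as an alternative. Its array medians ran from -0.050 to 0.019.

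Here each array was scaled to the 75th percentile of its 61657 non-control spots, floored at 1.43% of it, and log2 was taken. Outlier spots were left out. Across arrays 58.3% to 66.5% of spots were well above background, and the 75th percentile lay between 643 and 934 units. A probe was kept if well above background on all 3 arrays of a condition, and the probe of highest mean signal stood for its gene. Of 50683 probes 28174 were named through RefSeq transcripts, and the others kept the file's accession.

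Condition means were fitted with limma 3.58.1 in R 4.3.3 (eBayes with trend, two-sided), with Benjamini-Hochberg adjustment over 24643 genes. Figures used matplotlib 3.10.9 under Python 3.11.15. Alternatives changed the background correction, scaling, floor, filter, choice of probe, fit, thresholds or arrays, 1 at a time.

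Values on every array are given for each member called in any of the 12 comparisons, and up to 5 called genes of largest difference for each other list. Members and lists were chosen with earlier results of these data known. CYP2A6, protein sequences and probe sequences were not used here, and a few genes of the other lists are not reported here.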

Additional observations from a re-analysis of the deposited data

How the results depend on the processing

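Across the 12 comparisons, 75 member calls were recomputed under alternatives, giving 1474 differences. Of these 1247 kept direction and call, 227 kept direction with the call lost and 0 changed direction, and 28 calls held in every alternative. The cause was not tested where a call was lost. For Wnt3a in untransfected cells the count of called members went from 4 to 8 with spike-in scaling, 8 at the study's thresholds and 0 when only the conditions compared were fitted. Where 4 became 0, genes called went from 738 higher and 643 lower to 2 and 0. For Wnt3a with control siRNA, 0 became 5 with only the conditions compared and 1 at the study's thresholds, and with β-catenin siRNA 0 became 1 at those thresholds. Where 0 became 5, genes called went from 269 higher and 251 lower to 489 and 840. For Wnt3a with FZD8_CRD, 3 became 1 with spike-in scaling, 1 with normexp background correction and 0 with only the conditions compared. Where 3 became 0, genes called went from 1074 higher and 970 lower to none. For control siRNA without Wnt3a, 15 became 9 with a filter on all arrays, and with Wnt3a 7 became 2 with spike-in scaling, 4 with normexp, 4 with no filter and 0 with only the conditions compared. Where 7 became 0, genes called went from 1342 higher and 885 lower to 0 and 1. For β-catenin siRNA without Wnt3a, 3 became 1 with the deposited table, 1 with no filter and 10 with only the conditions compared, and with Wnt3a 3 became 1 with normexp. Where 3 became 10, genes called went from 1085 higher and 1520 lower to 1931 and 2390. For the Wnt3a response with FZD8_CRD minus none, 0 became 3 at the study's thresholds.

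Leaving out single arrays or a replicate of all conditions gave 0 to 17 called members for Wnt3a in untransfected cells, 0 to 6 with FZD8_CRD, 1 to 16 for control siRNA without Wnt3a and 0 to 14 with it, 1 to 2 for β-catenin siRNA without Wnt3a and 1 to 4 with it, 20 to 23 for FZD8_CRD without Wnt3a and 13 to 20 with it, and 0 to 4 for the Wnt3a response with FZD8_CRD minus none. The 3 comparisons with no other range kept a count of 0. These ranges stand without the share of all genes called in the same fits, so they are no result about the members alone. Signals near background, as for CYP2C8, CYP2C19, CYP4A22 and CYP4Z1, depend on the floor and the background correction.

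With the replicate block (the replicate number, which is also the slide), the counts were 8, 1, 0 and 4 for Wnt3a in untransfected, control siRNA, β-catenin siRNA and FZD8_CRD cells, 16 and 9 for control siRNA without and with Wnt3a, 4 and 4 for β-catenin siRNA, 23 and 18 for FZD8_CRD, and 0 and 1 for the differences in Wnt3a response. For Wnt3a in untransfected cells the block took genes called higher and lower from 738 and 643 to 1502 and 1322. Once condition means were removed, arrays sharing a number had a mean correlation of 0.384, and 82 of 84 pairs sharing a number were over 0.1. Arrays of a number thus deviated together for the most part. Arrays of different numbers had -0.191, a value largely set by removing the means, since deviations within a condition cancel out. As not every pair sharing a number was over 0.1 and no label names a shared source other than the slide, the block stayed an alternative.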

Other observations

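Of 20 P450 genes of families 5 to 51, which make sterols, steroids, bile acids and retinoid or vitamin D metabolites, 15 were tested (PTGIS, CYP26A1, CYP26C1, CYP27C1 and CYP46A1 were not). The bile acid 12α-hydroxylase CYP8B1 had differences of -4.55 (adjusted p = 1.52e-05) with FZD8_CRD, -3.45 (adjusted p = 0.000874) with control siRNA and 2.37 (adjusted p = 0.0224) with β-catenin siRNA, all without Wnt3a. With Wnt3a these were -3.05 (adjusted p = 0.000971), -3.03 (adjusted p = 0.00847) and 2.31 (adjusted p = 0.0242). CYP8B1 was well above background on 1 or 2 of 3 arrays with FZD8_CRD and on 1 with control siRNA and Wnt3a. CYP7A1, the rate-limiting enzyme of bile acid synthesis, was at least 4.3-fold lower with FZD8_CRD and 4.15-fold lower with control siRNA, both without Wnt3a and with no array of the lower group well above background. With FZD8_CRD without Wnt3a 7 of the 15 were lower and TBXAS1 was higher (0.48), including CYP21A2 (-2.72), CYP7B1 (-1.09) and CYP11A1 (-0.98). With Wnt3a 6 were lower and 3 higher, among them CYP21A2 (-2.25), CYP27A1 (-1.25) and CYP51A1 (-0.84), and the vitamin D 24-hydroxylase CYP24A1 was at least 2.77-fold higher than with Wnt3a alone. Control siRNA lowered 5 and raised TBXAS1 (0.44) without Wnt3a, with CYP21A2 (-1.32), CYP51A1 (-0.55) and CYP7B1 among them, and lowered CYP21A2 (-1.09) and CYP51A1 (-0.54) beside CYP8B1 and raised TBXAS1 (0.49) with Wnt3a. β-Catenin siRNA lowered CYP27A1 (-0.62 without and -0.69 with Wnt3a), and the retinoic acid hydroxylase CYP26B1 with Wnt3a (-1.07). Wnt3a lowered CYP7B1 (-0.84) in untransfected cells. With FZD8_CRD it raised CYP24A1 (1.12), CYP26B1 (1.02) and TBXAS1 (0.44) and lowered CYP27A1 (-0.76) and CYP51A1 (-0.54). The list had no limma call with Wnt3a after either siRNA or in the differences of Wnt3a response.

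All 9 genes of heme synthesis and breakdown were tested. FZD8_CRD raised CPOX (0.46) and UROS (0.32) without Wnt3a, and with Wnt3a raised HMOX1 (0.60) and UROS (0.27) and lowered ALAD (-0.63). Control siRNA raised UROS (0.34) without and UROS (0.25) with Wnt3a. Wnt3a with FZD8_CRD lowered CPOX (-0.35).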
